A study of Homo sapiens with 12 samples.

Results

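The genes described here encode 10 enzymes that activate or inactivate gemcitabine (GEM) inside the cell: the kinases DCK, TK2, CMPK1, NME1 and NME2, the deaminases CDA and DCTD, the 5′-nucleotidases NT5C and NT5C2, and the deoxynucleotide hydrolase SAMHD1. They were taken by gene name from the 58302 genes of the expression table, which holds all 10. The table covered BxPC-3 and CFPAC-1, established human pancreatic cancer cell lines that were sensitive to GEM, and the resistant line raised from each (BxPC-3-GR; CFPAC-1-GR), with 3 replicates of each of the 4 lines and 12 libraries in all. Resistance was selected by repeated GEM exposure at rising concentrations, with a higher final concentration for BxPC-3-GR, and each resistant line is the population that survived. The libraries were made from RNA of cells lysed at the same confluence. By the labels BxPC-3-GR had a mesenchymal morphology and the other 3 lines an epithelial one. The labels and the methods name different media for the CFPAC-1 lines. Nothing states that the 3 replicates of a line were separate cultures, so the p values measure only the spread between these libraries, which may be technical.

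GEM is a deoxycytidine analog that is inert until it is phosphorylated. DCK adds the first phosphate in the cytosol and is regarded as the limiting step, TK2 can do the same in mitochondria, CMPK1 adds the second phosphate, and nucleoside diphosphate kinases such as NME1 and NME2 add the third. CDA deaminates GEM to an inactive uridine analog and DCTD acts on its monophosphate. NT5C and NT5C2 can remove the phosphate from nucleoside monophosphates, and SAMHD1 cleaves deoxynucleoside triphosphates.

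The values were FPKM, the fragments of a gene relative to its length and to the total mapped in the library. From the steps between low values, the depth was about 12600000 to 25200000 fragments per library. Only 38.3% to 51.9% of low values were whole multiples of such a step within 0.02 fragments, so this depth is a rough guide and no count test was run. By it, each of the 10 genes rested on at least 78 implied fragments (NT5C) in its lowest library. Ductal keratins, EPCAM and CDH1 were present in every line, with EPCAM at 53.7 to 128 FPKM over the 12 libraries, and PTPRC, the pan-leukocyte marker, was listed at 0 in all 12. The other leukocyte markers, mostly CD14 and LYZ, summed to 9.32 to 11.6 FPKM in CFPAC-1 and 4.43 to 6.16 FPKM in CFPAC-1-GR, but at most 0.771 FPKM in the BxPC-3 lines, and 6 fibroblast and endothelial markers summed to at most 3.46 FPKM. Their part in the results was not tested. The 7 mesenchymal markers did not move one way in BxPC-3-GR: its libraries lay above those of BxPC-3 for CDH2 and FN1, below them for VIM, SNAI2 and ZEB1, and overlapped for ZEB2 and TWIST1. ZEB1, ZEB2 and TWIST1 were below 0.1 FPKM in all 6 of these libraries. The 3 parental CFPAC-1 libraries stood apart from the other 9 in base composition. Across 12184 genes, the deviation of a library from the mean of the 4 lines had a Spearman correlation with the GC content of the gene of 0.68 to 0.70 in CFPAC-1 and of -0.47 to -0.31 in the other 9 libraries. That mean includes CFPAC-1, so the sign in the other 9 libraries depends on it and is not read as an opposite trend. Genes within a library are not independent replicates, so these correlations are descriptions. Because all 3 CFPAC-1 libraries share this property, it cannot be told apart from the line, and the CFPAC-1-GR results of the 10 genes are given as deposited and after a correction of the log values for GC content and gene length within each library.

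**Figure D1:**
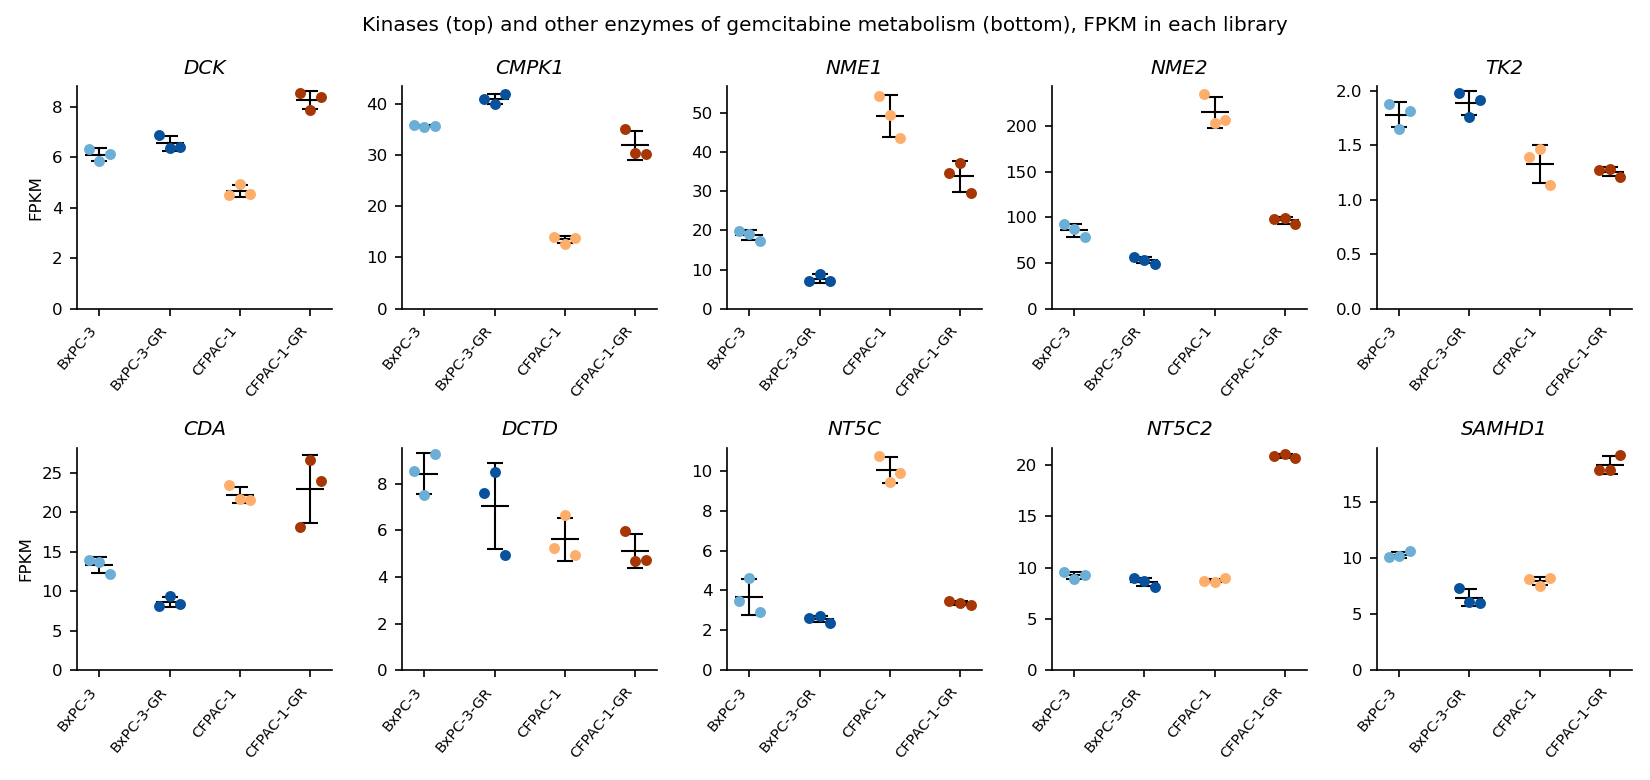
FPKM of the 10 enzyme genes (one panel each, y axis from 0) in the 4 lines (x axis). Points are single libraries, the horizontal mark is the mean and the bars are the SD (n = 3). NME1 and NME2 lay lower in both resistant lines, whereas SAMHD1 lay lower in BxPC-3-GR (5.99 to 7.32 FPKM) and higher in CFPAC-1-GR (17.8 to 19.2 FPKM) than in the parental line.

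The first comparison asked which of the 10 genes differed between each GEM-resistant line and its parental line. In BxPC-3-GR, NME1, NME2, SAMHD1 and CDA fell and CMPK1 rose, whereas DCK, TK2, DCTD, NT5C and NT5C2 did not pass the test. In CFPAC-1-GR, CMPK1, NT5C2, SAMHD1 and DCK rose and NT5C, NME2 and NME1 fell in the values as deposited. NME1 and NME2 fell in both lines as deposited and after correction, but NME2 in CFPAC-1-GR did not pass the test in every fit with a correction.

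Each comparison used limma on log2(FPKM + 1) on genes that averaged 1 FPKM or more over the 6 libraries, with p values adjusted by the Benjamini-Hochberg method over all tested genes. This scale understates the change of low genes. At an adjusted p below 0.05, 1 of the 10 genes rose and 4 fell in BxPC-3-GR, where 26.2% of 11710 genes rose and 31.5% fell. With an absolute log2FC above 1 as well, which defined significantly differentially expressed (SDE) genes, only NME1 was called, downwards, against 4.14% of all tested genes upwards and 3.62% downwards. In CFPAC-1-GR, 4 of the 10 rose and 3 fell, against 44.6% and 34.9% of 12051 genes, and 3 were SDE upwards (CMPK1, NT5C2 and SAMHD1) and 2 downwards (NT5C and NME2), against 20.5% and 11.7%. Over the 14 fits without a correction, the lowest log2FC was 0.77 for CMPK1, 0.76 for NT5C2, 0.71 for SAMHD1 and 0.34 for DCK. Their adjusted p in limma stayed below 0.05, but CMPK1, NT5C2 and SAMHD1 were not SDE in every such fit. NT5C and NME2 were, with a log2FC of at most -1.29 and -1.08. In each line 7 of the 10 genes had no overlap between resistant and parental libraries, beside a background of 66.1% for BxPC-3-GR and of 82.1% for CFPAC-1-GR. None of these counts is read as a property of the 10 genes, and single genes are described below. With 3 libraries against 3, an exact permutation test of 1 gene cannot give a 2-sided p below 0.10.

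After the correction, 2 of the 10 genes rose and 5 fell in BxPC-3-GR, against 28.0% and 30.9% of all tested genes. In CFPAC-1-GR 3 rose and 4 fell after it, against 29.6% and 30.6%, but these were partly different genes: CDA joined SAMHD1 and NT5C2 among those that rose, CMPK1 no longer passed the test, and DCK moved from the genes that rose to those that fell. The median log2FC in BxPC-3-GR was -0.31 for the 10 genes and -0.05 for all tested genes, and in CFPAC-1-GR the medians were -0.01 and 0.13. In the CFPAC-1 lines, median-of-ratios and upper-quartile scaling moved that all-gene median from 0.13 to -0.13 and -0.24. With these scalings the calls over all genes moved from 5380 higher and 4210 lower to 4326 and 5294, and to 3924 and 5723.

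**Figure D2:**
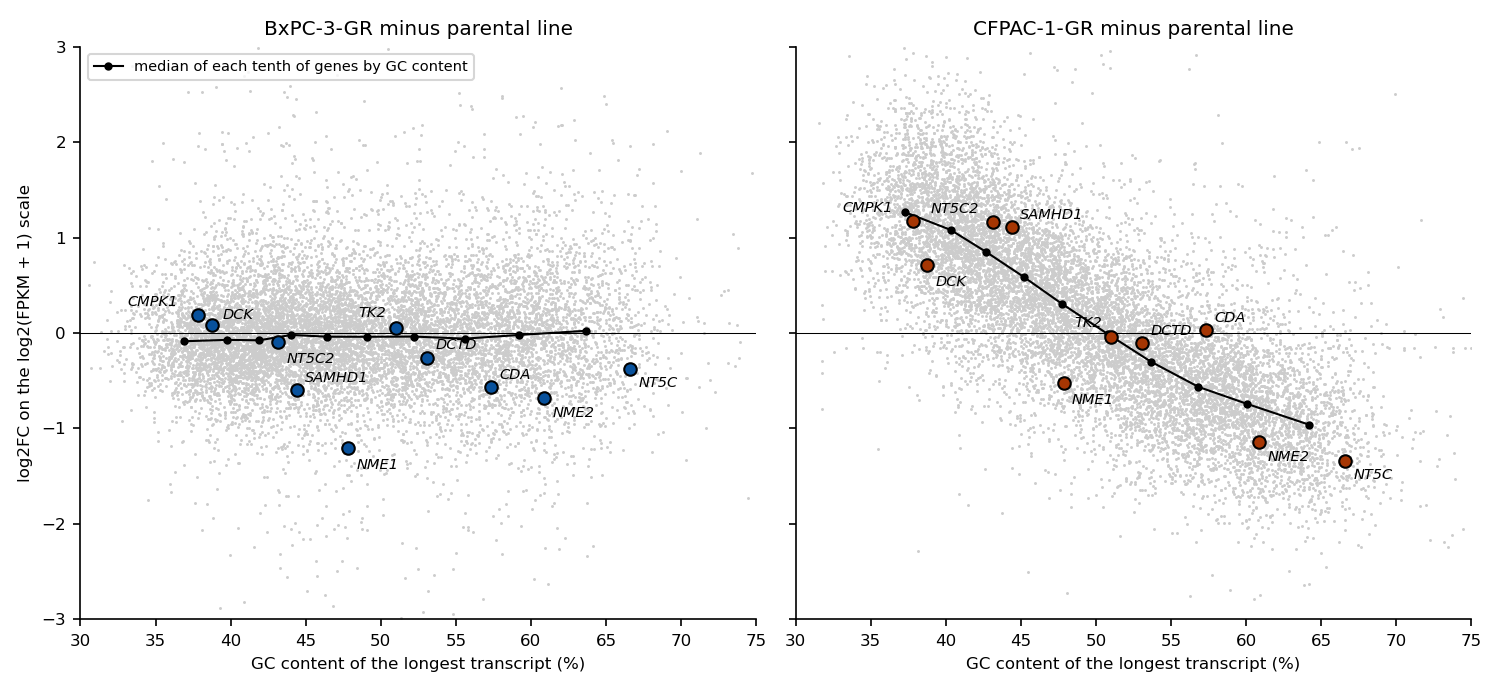
log2FC of the resistant minus the parental line (y axis, log2(FPKM + 1) scale) against the GC content of the longest transcript (x axis, %). Grey points are all tested genes within the axes, the black line joins the medians of 10 equal bins of genes by GC content, and coloured points are the 10 enzyme genes. In CFPAC-1-GR the line falls from 1.27 to -0.96, whereas in BxPC-3-GR it stays between -0.09 and 0.02.

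In CFPAC-1-GR, log2FC fell with rising GC content across genes. Over 12030 genes the Spearman correlation of log2FC with GC content was -0.78 in CFPAC-1-GR and -0.03 after correction. The correction takes out the trend with GC content by construction, so the value of -0.03 is no test of it. As deposited the correlation was 0.04 over 11685 genes in BxPC-3-GR. CMPK1, DCK, NT5C2 and SAMHD1, with GC contents of 37.8%, 38.8%, 43.2% and 44.4%, were the 4 genes of the set that rose in CFPAC-1-GR and also the 4 of lowest GC content. NT5C and NME2, at 66.6% and 60.9%, had the highest GC contents of the 10 and fell most. NME1, at 47.8%, lay below the median of genes of like GC content, and CDA, at 57.3%, lay above it. The part of base composition in these changes was not tested beyond the correction.

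Promoter windows, from 250 bases before to 50 after the annotated start, are shown for NME1, NME2, DCK and SAMHD1. NME1 and NME2 were taken because they fell in both lines, and DCK and SAMHD1 because their response differed between the lines. As deposited the responses of NME1 and NME2 also differed, as did those of CDA, CMPK1, NT5C and NT5C2, whose windows are not shown. Among the genes shown, the differences of DCK and NME2 changed sign after correction. The sequences are from RefSeq (GRCh38.p14, 5′ to 3′ on the strand of the gene), and the capitals mark matches on either strand to the E-box CACGTG, to the GC box GGGCGG, to the CCAAT box or to the TATA box TATAAA. These motifs do not contain one another. NME1 and NME1-NME2 have the same annotated window, whereas NME2 has 3 windows of its own, of which the first is shown.
NME1, chr17:51153309-51153608, plus strand: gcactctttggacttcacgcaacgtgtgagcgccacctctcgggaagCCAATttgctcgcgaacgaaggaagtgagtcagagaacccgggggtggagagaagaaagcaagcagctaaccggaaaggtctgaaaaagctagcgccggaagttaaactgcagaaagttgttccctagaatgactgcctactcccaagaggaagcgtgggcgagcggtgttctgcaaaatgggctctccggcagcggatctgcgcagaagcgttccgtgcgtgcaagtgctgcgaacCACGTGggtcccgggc
NME2, chr17:51165286-51165585, plus strand: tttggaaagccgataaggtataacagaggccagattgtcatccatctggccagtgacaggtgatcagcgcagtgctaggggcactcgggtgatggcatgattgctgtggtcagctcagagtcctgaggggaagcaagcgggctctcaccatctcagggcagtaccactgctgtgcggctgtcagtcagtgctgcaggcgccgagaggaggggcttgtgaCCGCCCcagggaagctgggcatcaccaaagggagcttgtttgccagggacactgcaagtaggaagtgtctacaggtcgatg
DCK, chr4:70993399-70993698, plus strand: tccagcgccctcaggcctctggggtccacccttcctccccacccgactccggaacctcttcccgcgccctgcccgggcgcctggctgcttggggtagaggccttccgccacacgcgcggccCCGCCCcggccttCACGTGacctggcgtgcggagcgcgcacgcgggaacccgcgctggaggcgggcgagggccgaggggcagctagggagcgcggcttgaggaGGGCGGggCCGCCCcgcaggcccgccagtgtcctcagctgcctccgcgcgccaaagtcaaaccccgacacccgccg
SAMHD1, chr20:36951659-36951958, minus strand: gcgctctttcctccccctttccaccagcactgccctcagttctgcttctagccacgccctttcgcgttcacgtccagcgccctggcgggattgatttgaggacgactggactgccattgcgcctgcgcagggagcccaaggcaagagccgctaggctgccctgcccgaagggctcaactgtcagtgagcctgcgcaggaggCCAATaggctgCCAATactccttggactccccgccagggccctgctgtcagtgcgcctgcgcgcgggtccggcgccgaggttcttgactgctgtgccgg

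The NME1 window held 1 match to CACGTG and 1 to CCAAT, and the NME2 window 1 match to GGGCGG. DCK held 1 match to CACGTG and 3 to GGGCGG, and SAMHD1 2 matches to CCAAT. None of these 4 windows matched TATAAA. Among all 34943 windows of the same length, 7.23% held CACGTG, 44.9% GGGCGG, 34.6% CCAAT and 11.6% TATAAA. Of the 10 genes, DCK and NME1 were those with CACGTG in a window. The GC content of the windows was 57.3% for NME1, 58.0% for NME2, 76.3% for DCK and 65.7% for SAMHD1. The NME2 windows that are not shown had GC contents of 69.7% and 76.7% and held 3 and 4 matches to GGGCGG. A match is a description of these letters and not of a factor bound there.

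DCK, the deoxycytidine kinase (ENSG00000156136; chromosome 4, 70992538 to 71030914, plus strand, GRCh38), changed direction in CFPAC-1-GR with the correction. The libraries held 6.34, 5.85 and 6.15 FPKM in BxPC-3 and 6.90, 6.35 and 6.41 FPKM in BxPC-3-GR. The lowest resistant library lay just above the highest parental one, and the log2FC of 0.09 ± 0.06 (SE, n = 3 per line) had an adjusted p of 0.226 in limma. After correction it was 0.19 with an adjusted p of 0.0276. The libraries held 4.50, 4.93 and 4.56 FPKM in CFPAC-1 and 8.54, 7.88 and 8.40 FPKM in CFPAC-1-GR, without overlap. This was a rise of 0.71 ± 0.07 (SE) with an adjusted p of 6.66e-05. Of 10 equal bins of tested genes by GC content, the lowest, to which DCK belonged in the CFPAC-1 lines, had a median log2FC of 1.27, so the rise of DCK was below the median of its bin. After correction DCK was lower in CFPAC-1-GR, with a log2FC of -0.34 and an adjusted p of 0.00360. The sign stayed negative under each of the 5 fits with a correction. Among these, the fit with a replicate block leaves the log2FC unchanged by construction and adds nothing on the sign. DCK shared 199 of 3227 exon bases with MOB1B on the same strand.

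TK2, the mitochondrial thymidine kinase (ENSG00000166548; chromosome 16, 66508003 to 66552544, minus strand), had the lowest FPKM of the 10 genes in every line. Its libraries held 1.88, 1.65 and 1.81 FPKM in BxPC-3 and 1.98, 1.76 and 1.91 FPKM in BxPC-3-GR. They held 1.39, 1.46 and 1.13 FPKM in CFPAC-1, against 1.28, 1.28 and 1.21 FPKM in CFPAC-1-GR. The resistant and parental libraries overlapped in both lines. The log2FC was 0.05 in BxPC-3-GR with a 95% interval of -0.09 to 0.20 and -0.04 in CFPAC-1-GR with an interval of -0.22 to 0.14. In CFPAC-1-GR it was -0.13 after correction (adjusted p = 0.160) and passed the test, at -0.34, when GC content was averaged over transcripts (adjusted p = 0.00734). As deposited it also passed under median-of-ratios scaling (-0.21, adjusted p = 0.0479) and upper-quartile scaling (-0.29, adjusted p = 0.0123).

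CMPK1, the UMP-CMP kinase (ENSG00000162368; chromosome 1, 47333797 to 47378839, plus strand), rose in both resistant lines as deposited. BxPC-3 held 35.9, 35.6 and 35.6 FPKM and BxPC-3-GR 40.9, 40.0 and 42.1 FPKM. All resistant libraries lay above all parental ones, and the small rise of 0.19 ± 0.05 (SE) had an adjusted p of 0.0117 in limma and was 0.28 after correction. CFPAC-1 held 14.1, 12.7 and 13.8 FPKM and CFPAC-1-GR 35.2, 30.4 and 30.3 FPKM. The libraries were again apart, and the mean rose 2.36-fold, from 13.5 ± 0.7 to 31.9 ± 2.8 FPKM (SD, n = 3). The log2FC of 1.18 ± 0.09 (SE) had an adjusted p of 1.94e-05, close to the median of 1.27 of genes of like GC content, and was 0.05 with an adjusted p of 0.577 after correction. The corrected value was -0.35 with a pseudocount of 0.1 (adjusted p = 0.00858) and 0.28 with GC content averaged over transcripts (adjusted p = 0.0149), so no direction is given for CMPK1 in this line beyond the values as deposited.

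NME1 and NME2, the A and B chains of nucleoside diphosphate kinase (NME1, ENSG00000239672, chromosome 17, 51153536 to 51162428; NME2, ENSG00000243678, 51165435 to 51171747, both plus strand), fell in both resistant lines. NME1 held 19.9, 19.2 and 17.3 FPKM in BxPC-3 and 6.98, 8.92 and 6.96 FPKM in BxPC-3-GR. The parental libraries all exceeded the resistant ones, the log2FC was -1.21 ± 0.11 (SE) with an adjusted p of 0.000205, and 2.19% of all tested genes had a lower log2FC. After correction it was -1.16. In CFPAC-1 it held 54.4, 49.4 and 43.7 FPKM and in CFPAC-1-GR 34.8, 37.1 and 29.5 FPKM. These were also apart, and the log2FC of -0.53 ± 0.12 (SE) with an adjusted p of 0.00457 went against the median of 0.31 of genes of like GC content. After correction it was -0.72 with an adjusted p of 0.00181.

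NME2 was the most abundant of the 10 genes in every line. It held 92.4, 87.2 and 78.1 FPKM in BxPC-3 and 56.1, 53.8 and 49.4 FPKM in BxPC-3-GR, and 235, 204 and 207 FPKM in CFPAC-1 against 98.0, 99.1 and 92.8 FPKM in CFPAC-1-GR. In both lines the lowest parental library exceeded the highest resistant one. The log2FC was -0.68 ± 0.08 (SE; adjusted p = 0.000757) in BxPC-3-GR and -1.14 ± 0.08 (SE; adjusted p = 1.68e-05) in CFPAC-1-GR. After correction the former was -0.67, whereas the latter shrank to -0.26 with an adjusted p of 0.0232 after correction, and it was -0.62 when GC content was averaged over all transcripts of each gene and -0.10, no longer passing the test (adjusted p = 0.369), when the corrected values had a pseudocount of 0.1.

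**Figure D3:**
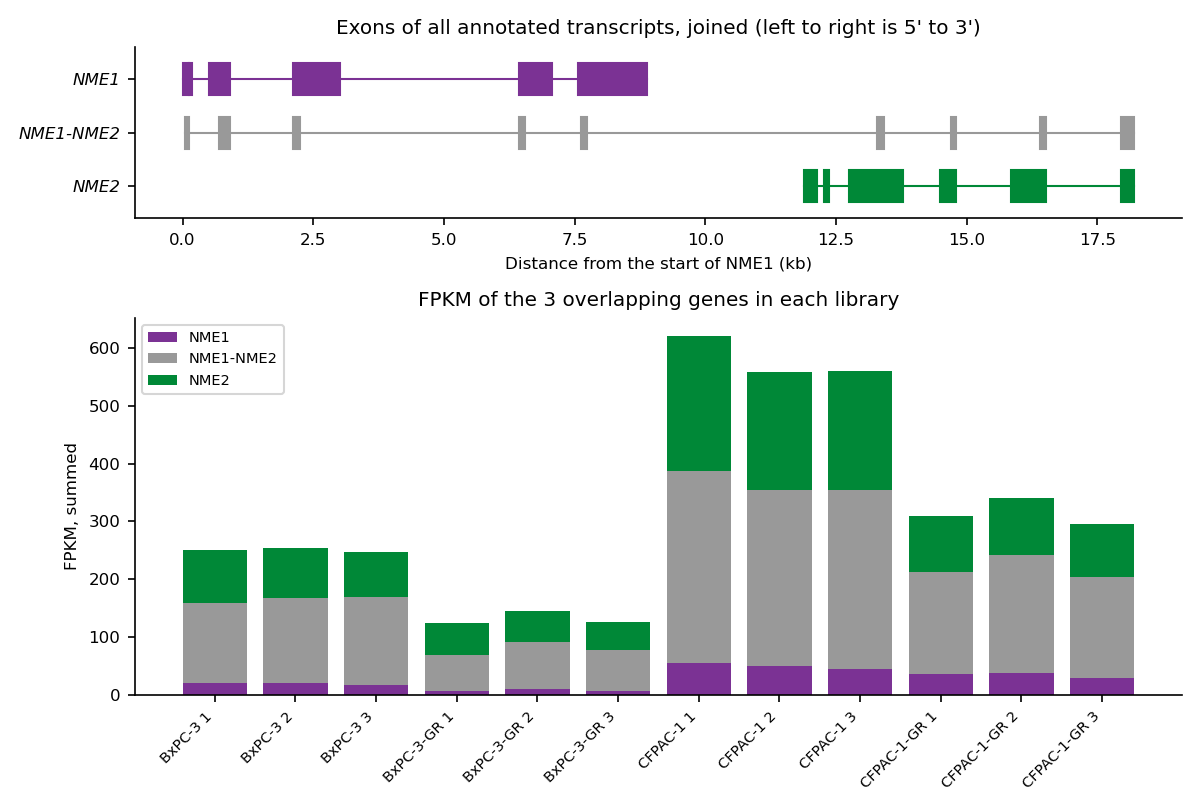
Upper panel, joined exons of NME1, NME2 and the read-through gene NME1-NME2 by distance from the start of NME1 (x axis, kb). Lower panel, FPKM of the 3 genes (y axis, stacked bars from 0) in each library, where the sums were 246 to 254 in BxPC-3 against 124 to 144 in BxPC-3-GR. In CFPAC-1 they were 558 to 621, against 296 to 340 in CFPAC-1-GR.

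The neighbouring genes NME1 and NME2 are joined by a read-through gene, NME1-NME2, whose exons make any split of fragments between the 3 uncertain. Of the 1241 exon bases of NME1-NME2, 638 lay in NME1 exons and 603 in NME2 exons, and 96.6% of its 50-base words also occurred in transcripts of other genes. No 50-base word was shared between NME1 and NME2 themselves. NME1-NME2 (ENSG00000011052) held 138, 148 and 151 FPKM in BxPC-3 and 60.8, 81.5 and 69.4 in BxPC-3-GR, and 332, 305 and 310 in CFPAC-1 against 177, 204 and 174 in CFPAC-1-GR. It fell with both neighbours, with log2FC of -1.04 and -0.77, and of -0.96 and -0.39 after correction. The summed FPKM of the 3 genes fell from 250.3 ± 3.8 to 131 ± 11 in BxPC-3-GR (SD, n = 3). In CFPAC-1-GR the fall was from 580 ± 36 to 315 ± 23. The exon lengths are 3438 bases for NME1, 2632 for NME2 and 1241 for NME1-NME2. The sum is thus not an FPKM of the locus and leans towards the shortest gene, NME1-NME2. These were log2FC of -0.93 ± 0.07 and -0.88 ± 0.08 (SE) with adjusted p of 0.000121 and 6.53e-05 in limma, as deposited only, since the sum was not corrected for GC content. Within the sum, NME1 made up 7.04% to 7.96% in BxPC-3 and 5.53% to 6.19% in BxPC-3-GR. Its share was 7.80% to 8.85% for CFPAC-1 and 9.95% to 11.2% for CFPAC-1-GR. These are shares of summed FPKM and not of fragments.

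CDA, the cytidine deaminase (ENSG00000158825; chromosome 1, 20588948 to 20618908, plus strand), fell in BxPC-3-GR. It held 14.0, 13.7 and 12.1 FPKM in BxPC-3 and 8.15, 9.33 and 8.44 FPKM in BxPC-3-GR. The lines did not overlap, and the log2FC was -0.57 ± 0.08 (SE) with an adjusted p of 0.00123 and -0.51 after correction. In CFPAC-1 it held 23.4, 21.6 and 21.5 FPKM and in CFPAC-1-GR 18.1, 26.6 and 24.0 FPKM. The resistant libraries lay on both sides of the parental ones, with a log2FC of 0.03 and a 95% interval of -0.30 to 0.36. Genes of like GC content had a median of -0.56, and after correction CDA was higher in CFPAC-1-GR by 0.81 with an adjusted p of 0.00118. Under the scalings the value was -0.26 (median-of-ratios) and -0.39 (upper-quartile), the latter with an adjusted p of 0.0423, so no direction is given for CDA in this line.

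DCTD, the dCMP deaminase (ENSG00000129187; chromosome 4, 182890060 to 182917936, minus strand), did not pass the test in either line as deposited. The libraries held 8.54, 7.52 and 9.26 FPKM in BxPC-3 and 7.63, 8.50 and 4.96 FPKM in BxPC-3-GR, and 5.25, 6.67 and 4.95 FPKM in CFPAC-1 against 5.97, 4.71 and 4.72 FPKM in CFPAC-1-GR. Parental and resistant libraries overlapped in both lines. The log2FC was -0.26 with a 95% interval of -0.70 to 0.19 in BxPC-3-GR and -0.11 with an interval of -0.41 to 0.20 in CFPAC-1-GR. In CFPAC-1-GR it passed the test with median-of-ratios scaling (-0.36, adjusted p = 0.0368) and upper-quartile scaling (-0.47, adjusted p = 0.00940), and was 0.18 after correction (adjusted p = 0.317).

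NT5C, a cytosolic and nuclear deoxyribonucleotidase (ENSG00000125458; chromosome 17, 75130225 to 75131795, minus strand), had a lower mean in both resistant lines and passed the test in CFPAC-1-GR. It held 3.46, 4.65 and 2.89 FPKM in BxPC-3 and 2.63, 2.69 and 2.37 FPKM in BxPC-3-GR, a log2FC of -0.37 ± 0.14 (SE) with an adjusted p of 0.0578 in limma. The libraries did not overlap, and the value passed the threshold after correction (-0.45, adjusted p = 0.0201) and without BxPC-3 replicate 3 (-0.49, adjusted p = 0.0183). It shrank to -0.23 without BxPC-3 replicate 2, the highest parental library. Over the 14 fits without a correction the adjusted p in limma ran from 0.0159 to 0.149, so the call depends on single parental libraries. In CFPAC-1 it held 10.8, 9.47 and 9.88 FPKM and in CFPAC-1-GR 3.46, 3.37 and 3.26 FPKM, a drop to 0.335 of the parental mean. The log2FC of -1.34 ± 0.07 (SE; adjusted p = 7.57e-06) stood beside a median of -0.96 in genes of like GC content and was -0.24 with an adjusted p of 0.0290 after correction, but did not pass the test when the corrected values had a pseudocount of 0.1 (-0.22, adjusted p = 0.0814). Exons of AC022211.4 cover 58.1% of the NT5C exon bases on the opposite strand, and the strand setting of the counting is not given in the sources used here, so reads of the pair cannot be told apart.

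NT5C2, the cytosolic purine 5′-nucleotidase (ENSG00000076685; chromosome 10, 103088017 to 103193306, minus strand), rose in CFPAC-1-GR as deposited and after correction. It held 9.55, 8.88 and 9.32 FPKM in BxPC-3 and 8.95, 8.65 and 8.15 FPKM in BxPC-3-GR, which overlapped, with a log2FC of -0.10 and a 95% interval of -0.23 to 0.04. In CFPAC-1 it held 8.70, 8.63 and 8.95 FPKM and in CFPAC-1-GR 20.9, 21.1 and 20.7 FPKM. The 3 resistant libraries were tightly grouped at a 2.39-fold higher mean, and the log2FC was 1.17 ± 0.06 (SE) with an adjusted p of 6.88e-06. Genes of like GC content had a median of 0.85, and the corrected value was 0.35 with an adjusted p of 0.00178, falling to 0.17 with averaged GC content (adjusted p = 0.0415) and 0.18 with a pseudocount of 0.1 (adjusted p = 0.0479). Exons of CNNM2 on the opposite strand cover 36.7% of the NT5C2 exon bases.

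SAMHD1, the deoxynucleoside triphosphate hydrolase (ENSG00000101347; chromosome 20, 36890229 to 36951843, minus strand), moved in opposite directions in the lines. It held 10.1, 10.1 and 10.6 FPKM in BxPC-3 and 7.32, 6.10 and 5.99 FPKM in BxPC-3-GR, without overlap. The drop, from 10.28 ± 0.27 to 6.47 ± 0.74 FPKM (SD, n = 3), was a log2FC of -0.60 ± 0.08 (SE) with an adjusted p of 0.00110, and -0.66 after correction. In CFPAC-1 it held 8.13, 7.51 and 8.21 FPKM and in CFPAC-1-GR 17.8, 17.9 and 19.2 FPKM. This was a rise of 1.11 ± 0.07 (SE) with an adjusted p of 1.13e-05, beside a median of 0.59 in genes of like GC content. The corrected rise was 0.22 with an adjusted p of 0.0438, and it was -0.12 with an adjusted p of 0.248 when GC content was averaged over all transcripts, so that the rise of SAMHD1 in CFPAC-1-GR rests on the values as deposited.

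**Figure D4:**
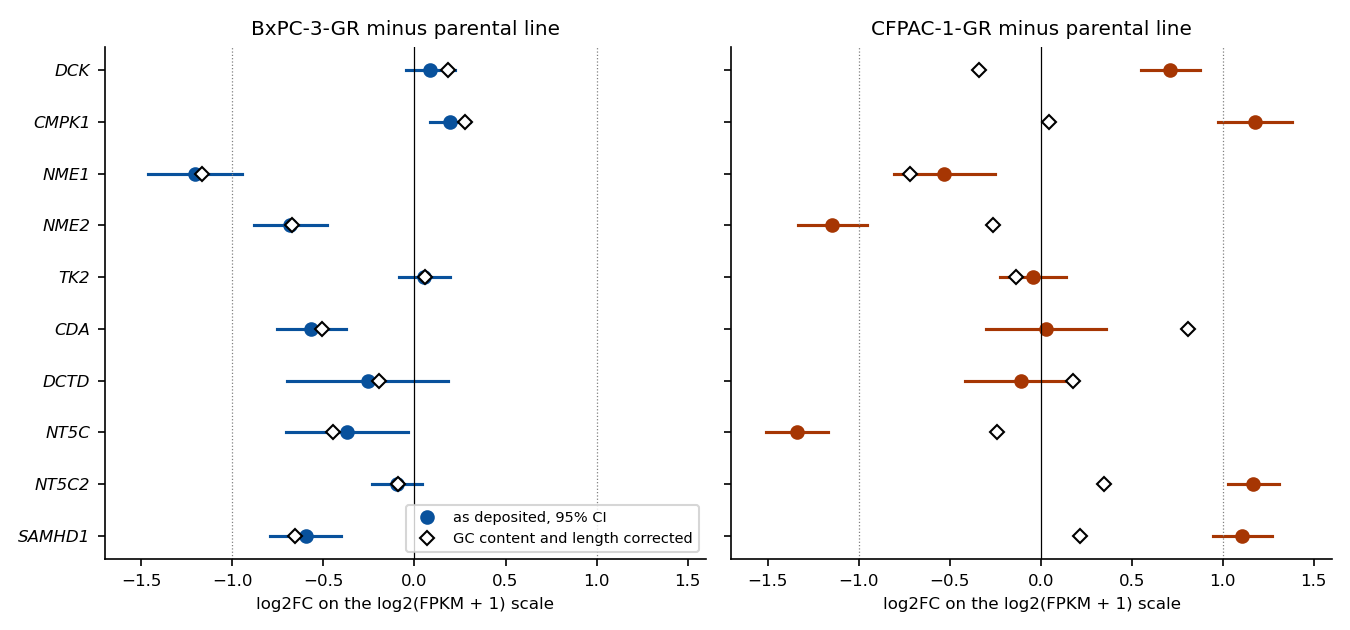
log2FC of each resistant minus its parental line (x axis, log2(FPKM + 1) scale) for the 10 genes (y axis). Filled circles with bars are values as deposited with 95% confidence intervals, open diamonds are values after the GC content and length correction, and dotted lines mark a log2FC of 1 in either direction. Circles and diamonds lie close together in BxPC-3-GR and far apart for several genes in CFPAC-1-GR, such as CMPK1 (1.18 and 0.05) and NT5C (-1.34 and -0.24).

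The second comparison asked whether the response to selection differed between the lines, as an interaction term of limma over all 12 libraries. As deposited, 8 of the 10 genes had an adjusted p below 0.05, against 76.6% of 12210 genes, and 2 (SAMHD1 and NT5C2) also had a difference above 1, against 38.0%. The response of SAMHD1 was higher in the CFPAC-1 lines by 1.71 ± 0.10 (SE; adjusted p = 8.13e-08), by 0.90 after correction, and by 0.54 to 0.90 under the 5 fits with a correction. The response of NT5C2 was higher by 1.26 ± 0.07 (SE; adjusted p = 5.38e-08) and by 0.27 to 0.47 under the 5 fits with a correction. Among these 5, the fit with a replicate block leaves the difference unchanged by construction. CDA differed by 0.60 ± 0.17 (SE; adjusted p = 0.00746) and by 1.34 after correction (adjusted p = 1.13e-05), but by 0.25 and 0.13 without passing the test under the scalings. The difference of NME1 was 0.68, a deeper fall in the BxPC-3 lines, and 0.45 after correction, and it did not pass the test under the scalings.

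After correction 7 of the 10 genes had an adjusted p below 0.05, against 63.3% of all tested genes. DCK turned from 0.63 to -0.48, CMPK1 from 0.98 to -0.19, and NME2 from -0.46 to 0.43. With GC content averaged over transcripts, the corrected values of CMPK1 (0.057, adjusted p = 0.559) and NME2 (0.0031, adjusted p = 0.980) did not pass the test. NT5C changed from -0.97 to 0.23 and no longer passed the test (adjusted p = 0.202). DCTD did not pass in either form. TK2 did not pass at -0.10 as deposited or -0.19 after correction, but passed with median-of-ratios scaling (-0.31, adjusted p = 0.0134), with upper-quartile scaling (-0.37, adjusted p = 0.00447) and with averaged GC content (-0.38, adjusted p = 0.00414). The scalings moved the calls over all genes in this comparison from 5487 higher and 3860 lower to 4326 and 4893 with median-of-ratios and to 4036 and 5291 with upper-quartile scaling.

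The parental lines were compared to show the levels from which resistance was selected, and the same CFPAC-1 libraries entered here and above. As deposited, 9 of the 10 genes differed between CFPAC-1 and BxPC-3, against 84.7% of all tested genes, and 4 exceeded a log2 difference of 1 (NME1, NME2, NT5C and CMPK1), against 43.3%. NME1 was higher in CFPAC-1 by 1.34 (adjusted p = 7.26e-07) and by 1.38 after correction. NME2 was higher by 1.31 and NT5C by 1.26, but after correction the values were 0.29 and 0.01. CMPK1 was lower in CFPAC-1, with a log2 difference of -1.34 (adjusted p = 5.14e-09) and of -0.29 after correction. DCTD was also lower, at -0.52 and -0.98 after correction, but did not pass the test with median-of-ratios scaling (-0.36, adjusted p = 0.0604), with upper-quartile scaling (-0.24, adjusted p = 0.199) or without CFPAC-1 replicate 3 (-0.44, adjusted p = 0.0518). DCK and SAMHD1 were each at -0.33 as deposited and higher after correction, by 0.63 and 0.48. With upper-quartile scaling they were at -0.06 (adjusted p = 0.347) and -0.04 (adjusted p = 0.606), and SAMHD1 also missed the threshold with median-of-ratios scaling (-0.17, adjusted p = 0.0516). NT5C2 was at -0.07 and did not pass the test, but at 0.67 after correction. The scalings moved the all-gene median of this comparison from -0.14 to -0.00044 and 0.12, and NT5C2 to 0.090 and 0.22. CDA, higher in CFPAC-1 by 0.70, was at -0.23 after correction (adjusted p = 0.0514).

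In the order of the 4 lines, DCK lay lowest in CFPAC-1, followed by BxPC-3, BxPC-3-GR and CFPAC-1-GR, with no overlap between neighbouring lines. SAMHD1 rose from BxPC-3-GR through CFPAC-1 and BxPC-3 to CFPAC-1-GR, also without overlap. NME1 and NME2 shared the order BxPC-3-GR, BxPC-3, CFPAC-1-GR and CFPAC-1, and again no neighbours overlapped. For CDA the order was BxPC-3-GR, BxPC-3, CFPAC-1 and CFPAC-1-GR, and the last pair overlapped. All neighbours overlapped for DCTD. CMPK1 rose from CFPAC-1 through CFPAC-1-GR and BxPC-3 to BxPC-3-GR without overlap, and for NT5C2 the neighbours among BxPC-3-GR, CFPAC-1 and BxPC-3 overlapped and CFPAC-1-GR lay above them. Within each line NME2 had the highest and TK2 the lowest mean FPKM of the 10 genes, and 49.9% to 69.1% of genes above 1 FPKM lay below DCK.

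As a measure of activating against inactivating enzyme transcripts, the FPKM of DCK was divided by that of CDA, NT5C and DCTD in each library. The DCK to CDA ratio averaged 0.462 ± 0.042 in BxPC-3 and 0.762 ± 0.083 in BxPC-3-GR (SD, n = 3). For CFPAC-1 it averaged 0.211 ± 0.018 and for CFPAC-1-GR 0.372 ± 0.090. The DCK to NT5C ratio averaged 1.74 ± 0.44 and 2.56 ± 0.18 in the BxPC-3 lines and 0.467 ± 0.051 and 2.46 ± 0.12 in the CFPAC-1 lines. The DCK to DCTD ratio averaged 0.728 ± 0.058 and 0.98 ± 0.28 in the BxPC-3 lines and 0.840 ± 0.093 and 1.63 ± 0.18 in the CFPAC-1 lines. Each mean was thus higher in the resistant line, and the resistant and parental libraries overlapped for DCK to DCTD in BxPC-3-GR.

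On the log2(FPKM + 1) scale the mean ratios were higher by 0.65 for CDA, 0.46 for NT5C and 0.34 for DCTD in BxPC-3-GR. In CFPAC-1-GR they were higher by 0.68, 2.05 and 0.82. The exact 2-sided permutation test gave 0.10, the smallest p it can give, for 5 of the 6 comparisons and 0.20 for DCK to DCTD in BxPC-3-GR. Adjusted over the 6 tests the p values were 0.12 and 0.20, so none could pass 0.05 with this number of libraries. After correction the 3 differences in CFPAC-1-GR turned to -1.15, -0.10 and -0.52, whereas those in BxPC-3-GR were 0.69, 0.63 and 0.38.

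**Figure D5:**
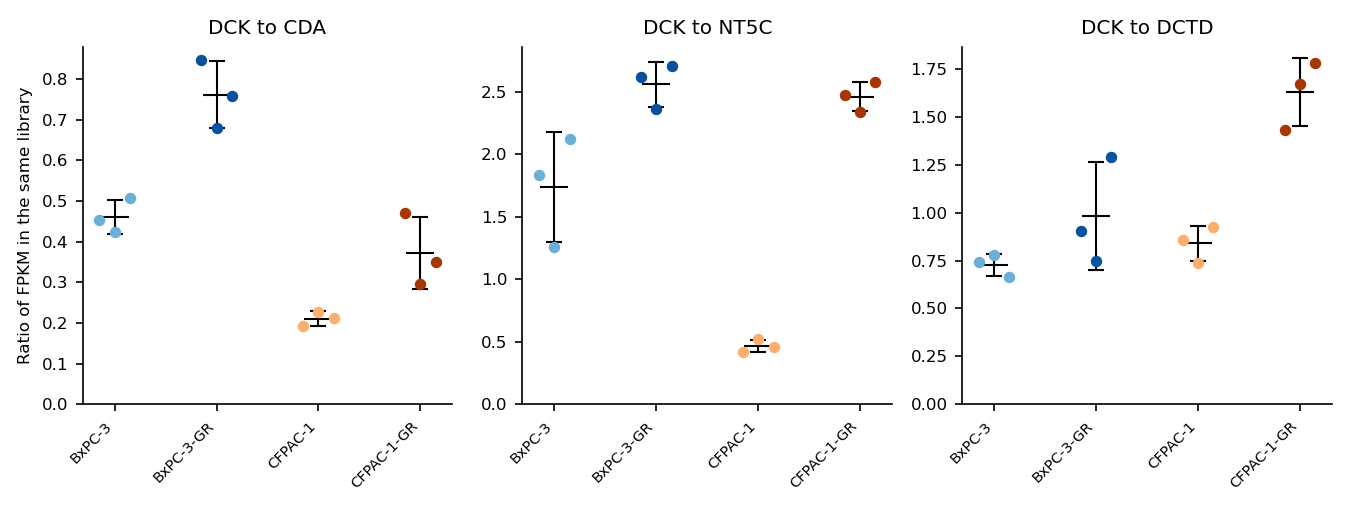
Ratio of DCK to CDA, NT5C and DCTD, as FPKM of the same library (y axis from 0), in the 4 lines (x axis). Points are libraries, the horizontal mark is the mean and the bars are the SD (n = 3). All 6 means are higher in the resistant line as deposited, and the largest gap is that of DCK to NT5C between CFPAC-1 (mean 0.467) and CFPAC-1-GR (mean 2.46).

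Other enzymes of nucleotide metabolism were read from 5 lists, whose counts stand beside 26.2% of all tested genes that rose and 31.5% that fell in BxPC-3-GR. For CFPAC-1-GR these shares were 44.6% and 34.9% as deposited and 29.6% and 30.6% after correction. Of 15 tested nucleoside and nucleotide kinases outside the set, 5 rose and 5 fell in BxPC-3-GR with none SDE, and 4 rose and 9 fell in CFPAC-1-GR, where 1 rose and 5 fell after correction. There, NME4, a mitochondrial nucleoside diphosphate kinase, fell by 1.72 on the log2 scale and by 0.93 after correction, AK4 rose by 1.42 and 0.42, and TK1, the S phase thymidine kinase, fell by 1.16 as deposited and had a corrected value of -0.15 that did not pass the test. GUK1 fell by 1.12 and 0.36. The median log2FC of this list was -0.09 for BxPC-3-GR and -0.66 for CFPAC-1-GR, the latter -0.15 after correction.

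Of the other nucleotidases and triphosphate hydrolases, 1 of 9 rose and 4 fell in BxPC-3-GR, and 3 of 10 rose and 5 fell in CFPAC-1-GR. Their median log2FC was -0.25 and -0.07. After correction 2 rose and 2 fell in CFPAC-1-GR, with a median of -0.10. DCTPP1, a dCTP pyrophosphatase, fell from 11.4 ± 3.5 to 4.5 ± 1.3 FPKM in BxPC-3-GR (log2FC -1.17, adjusted p = 0.00649). In CFPAC-1-GR the SDE genes included NUDT1 (-1.33), a hydrolase of oxidised nucleotides, DNPH1 (-1.24) and NT5C3A (1.04). After correction these were -0.52, -0.13 and -0.11, and of the 3 NUDT1 still passed the test.

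Among pyrimidine catabolism genes, 4 were tested. DPYD, the dihydropyrimidine dehydrogenase, rose in both lines (0.20 and 0.99) but was -0.16 in CFPAC-1-GR after correction. UPP1, a uridine phosphorylase, fell in both, by 1.15 and 0.91, and by 1.14 and 1.12 after correction. It was the only SDE gene of this list in BxPC-3-GR, and there was none in CFPAC-1-GR. In BxPC-3-GR 1 of the 4 rose and 1 fell, with a median log2FC of 0.14, and in CFPAC-1-GR 1 rose and 2 fell, with a median of -0.15, and after correction again 1 and 2, with a median of -0.37.

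Of 12 genes of pyrimidine and deoxynucleotide synthesis, 3 rose and 6 fell in BxPC-3-GR and 5 rose and 6 fell in CFPAC-1-GR, with medians of -0.30 and -0.11. After correction 2 rose and 6 fell in CFPAC-1-GR, with a median of -0.15. RRM1, the large subunit of ribonucleotide reductase and a target of GEM diphosphate, rose from 29.1 ± 1.3 to 413 ± 15 FPKM in BxPC-3-GR and from 8.07 ± 0.81 to 306 ± 5 FPKM in CFPAC-1-GR (SD, n = 3). The log2FC of 3.78 and 5.08 were 3.81 and 4.35 after correction, larger than the log2FC of each of the 10 genes. RRM2, the small subunit, fell by 1.22 in BxPC-3-GR. In CFPAC-1-GR the SDE genes that fell were SHMT2 (-1.31) and CAD (-1.24), and after correction these were -0.80 and -0.84.

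Of the S phase and replication genes in BxPC-3-GR, 15 of 20 fell and none rose, with a median log2FC of -0.41 and CCNE1 (-1.41) and GINS3 (-1.21) as SDE genes. In CFPAC-1-GR, 8 of 19 rose and 7 fell, with a median of 0.08, where the largest were E2F1 (-1.73), CDT1 (-1.67), MKI67 (1.35) and CCNA2 (1.19). After correction these 4 were -0.78, -0.73, 0.85 and 0.41, and 7 of the list rose and 7 fell, with a median of 0.03. Their part in the changes of the 10 enzymes was not tested.

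The genes whose profile over the 12 libraries was most like that of a member were found among 12210 genes by the root mean square difference of centred log2(FPKM + 1). PCNT, CCDC112 and LATS2 were nearest to DCK (0.046, 0.068 and 0.071), beside a root mean square of 0.258 for the DCK profile itself. POLR2L, MRPS23 and LRRC59 were nearest to CDA (0.116, 0.133 and 0.140, profile 0.553). AASS, ENC1 and NPM1P27, a pseudogene that could share fragments with its parent gene, were nearest to SAMHD1 (0.105, 0.109 and 0.118, profile 0.520). These are descriptions over libraries that include the 3 CFPAC-1 libraries named above.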

How the data were processed

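RNA-seq was read from 1 table of gene FPKM that the authors deposited for all 12 libraries (12 columns, each assigned to its sample by name). The submitters' processing notes list FastQC 0.10.1, Trimmomatic 0.27 and TopHat2 2.0.8 and both hg19 and GRCh38. The methods name GRCh38 with Ensembl 91 and DESeq2 on counts, which were not analysed here, and the positions in the table fit GRCh38. The counting program and strand setting are not given in the sources used here. The authors scaled FPKM by gene length and mapped fragments. The members and gene lists were chosen with earlier results of these data known.

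FPKM were analysed as log2(FPKM + 1) with limma 3.58.1 in R 4.3.3, on genes averaging 1 FPKM or more, with Benjamini-Hochberg adjustment and calls at an adjusted p below 0.05. SDE genes had an absolute log2FC above 1 as well. All 10 members passed the filter in each comparison. All members are named, and from each other list at most 4 SDE genes of largest absolute log2FC per line, plus RRM1 by the rule, the 3 genes nearest in profile to DCK, CDA and SAMHD1, and DPYD, which was chosen after its values were seen. Of the genes this rule names, 2 are not reported here. The correction took the deviation of each library's log values from the gene mean over the compared libraries. Within each library it regressed this deviation on splines (5 degrees of freedom) of GC content and log2 length, and the fit was subtracted. It therefore takes out any difference between lines that follows GC content or length, whatever its source. GC content and length came from GENCODE 29, which held 58039 genes. Alternatives were a pseudocount of 0.1, no filter, 2 scalings, the correction, a replicate block, protein-coding genes, all 12 libraries and leaving out each library. Splines with 10 degrees of freedom, the correction with a pseudocount of 0.1 and GC content averaged over transcripts were chosen after seeing the data. The scripts were tested on simulated data, but the limit for passing was lowered after the results were seen and the simulation was changed. That test is therefore not used as support. Motifs were searched in RefSeq windows (GRCh38.p14).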

Additional observations from a re-analysis of the deposited data

Results flagged for a closer look

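For 8 of the 10 genes the response of the CFPAC-1 lines differed from that of the BxPC-3 lines by the interaction term of limma, given as the CFPAC-1-GR log2FC minus the BxPC-3-GR log2FC. The differences were 1.71 for SAMHD1, 1.26 for NT5C2, 0.98 for CMPK1, 0.68 for NME1, 0.63 for DCK, 0.60 for CDA, -0.46 for NME2 and -0.97 for NT5C. Corrected for GC content and length, they were 0.90, 0.47, -0.19, 0.45, -0.48, 1.34, 0.43 and 0.23 in the same order, and the value of NT5C no longer passed the test. The genes tested at large differed in 76.6% of cases as deposited and 63.3% after correction.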

How the results depend on the processing

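Of the gene values in BxPC-3-GR, none changed sign under the alternatives, and in CFPAC-1-GR 18 of 182 did. Without a correction for GC content the counts of members called in BxPC-3-GR kept 1 gene higher and were 4 to 5 lower as single libraries were left out. With each of the 5 corrected fits 2 were higher. Over all tested genes, leaving out single libraries gave 2662 to 2964 higher and 3248 to 3464 lower. The corrected fits gave 3116 to 3289 of 11685 higher. In CFPAC-1-GR, leaving out single libraries gave 4 higher and 3 lower, but upper-quartile scaling gave 6 lower, median-of-ratios scaling gave 5 and so did GC content averaged over transcripts, and 2 were higher with a pseudocount of 0.1 and the correction. The all-gene calls in CFPAC-1-GR moved too, from 4210 of 12051 lower to 5723 of 11937 with upper-quartile scaling. They were 5294 of 11966 with median-of-ratios scaling and 3924 of 12030 with averaged GC content. With the pseudocount and the correction, 3315 of 12030 were higher. Between the parental lines, 5 members were lower as deposited (4 to 5 without single libraries) and 3 after correction. There were 2 with median-of-ratios and 1 with upper-quartile scaling. Of all tested genes, 5652 of 12210 were lower as deposited and 4823 of 12184 after correction. With the scalings these were 5134 of 12193 and 4687 of 12197.

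In CFPAC-1-GR, DCK was -0.34 after correction, -0.34 with 10 degrees of freedom, -0.38 with averaged GC content and -0.64 with a pseudocount of 0.1, and DCTD was 0.18, 0.22, 0.13 and 0.20. With the last 2 settings SAMHD1 was -0.12 and -0.028, and with the last CMPK1 was -0.35. CDA was -0.26 with median-of-ratios and -0.39 with upper-quartile scaling, and from -0.083 to 0.18 without single libraries, below 0 without CFPAC-1-GR replicate 2 (-0.083) or 3 (-0.013), and DCTD ranged from -0.20 to 0.0022, the latter without CFPAC-1 replicate 2. The interaction under the same 4 corrected settings was -0.48, -0.46, -0.54 and -0.85 for DCK, 0.23, 0.21, 0.22 and 0.42 for NT5C and 0.43, 0.43, 0.0031 and 0.65 for NME2. For CMPK1 it was -0.19, -0.18, 0.057 and -0.64. For DCTD it was -0.16 with median-of-ratios and -0.26 with upper-quartile scaling and ranged from -0.052 (without BxPC-3-GR replicate 3) to 0.28 without single libraries. Between the parental lines DCK was 0.63, CDA -0.23, NT5C2 0.67 and SAMHD1 0.48 after correction, and NT5C2 was 0.090 and 0.22 with the scalings. The corrected ratios of DCK in CFPAC-1-GR were -1.15 to CDA, -0.10 to NT5C and -0.52 to DCTD. The cause was not tested.

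Same-numbered replicates did not deviate together, with correlations of 0.0959, -0.0521 and 0.0584 in the BxPC-3 lines and 0.000145, -0.143 and -0.0671 in the CFPAC-1 lines, so the numbers were not taken to pair the libraries. With a replicate block 1 member was higher and 5 lower in BxPC-3-GR, where NT5C passed the test (adjusted p = 0.0379 in limma), and 4 and 3 in CFPAC-1-GR. The interaction with the block had 6 higher and 2 lower, and the parental comparison 4 and 5. Over all tested genes, the block gave 2984 higher and 3557 lower of 11710 in BxPC-3-GR. In CFPAC-1-GR it gave 5279 and 4096 of 12051. For the interaction these were 5463 and 3841 of 12210, and between the parental lines 4675 and 5630 of 12210. With the block and the correction, 2 were higher in BxPC-3-GR, 2 were higher in CFPAC-1-GR, where SAMHD1 no longer passed the test (adjusted p = 0.0936), and 3 were lower between the parental lines, while signs turned as with the correction alone. For the ratios the block leaves the mean difference as it is by construction and was given no test.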
